A study of Mus musculus with 33 samples.

Results

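The genes described here are 34 mouse genes of the lysosome, taken by name from a list of lysosomal enzymes, their activators, lysosomal membrane proteins, progranulin and the transcription factor Tfeb. The arrays name 18193 genes through probe sets that name a single gene, and 33 of the 34 are among them. All 33 were above the filter on low signals and were tested among 12760 genes, and Cd63, a membrane protein, was not analysed here.

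Affymetrix MOE430 2.0 arrays were hybridised with RNA of the right hippocampus, 1 array for each of 33 male mice aged 20 weeks. The animals were kept on a mixed SJL × C57BL/6J background and formed 3 groups of 11. The first group held wild-type littermates dosed with vehicle, and the second held heterozygous Tg2576 mice dosed with vehicle. The third held heterozygous Tg2576 mice given a daily oral gavage of TO901317 in vehicle at 50 mg/kg. Dosing lasted 7 days by the design text but 5 days by the treatment protocol, and tissue was taken 1 hour after the last dose and saline perfusion. Tg2576 mice carry human APP bearing the Swedish mutation of familial Alzheimer's disease, driven by the prion promoter, and TO901317 activates liver X receptors (LXR), which sense oxidised cholesterol. Wild-type mice given the drug were not analysed here, and a response to the drug could not be set beside one without the transgene.

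Lysosomes are acidic organelles in which hydrolases break down proteins, lipids, glycans and nucleic acids delivered by endocytosis and autophagy. Most of the soluble enzymes are tagged in the Golgi and carried to the lysosome by receptors, and the limiting membrane is built of heavily glycosylated proteins and transporters. Tfeb and its relatives raise the transcription of many of these genes together by binding a short palindromic element in their promoters, and loss of individual enzymes causes lysosomal storage diseases, many of which affect the brain.

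That palindromic element is the feature shared by part of the group at the level of sequence, so the stretches that carry it are shown. Promoters of 300 bases, 250 before to 50 after the RefSeq start (GRCm38.p6), were found for 32 of the 34 genes. The core CACGTG was searched on both strands, as were the longer forms TCACGTG, GTCACGTG and the palindrome of GTCACGTG followed by AC, each of which contains the shorter ones. CACGTG was present in 11 of 32 promoters of the group (34.4%), against 8.09% of 27025 genes with a promoter of that length. TCACGTG was present in 9 (28.1%, against 4.29%), GTCACGTG in 8 (25%, against 2.55%) and the longest form in 1, that of Cln3 (3.12%, against 0.37%). A direct repeat of the kind that LXR binds, AGGTCA followed by NNNN and AGGTCA again, was found in 0 of 32, against 0.0148% of all genes. These are matches of letters and not shown binding sites, and the absence of a match says only that these letters are not in the window.

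The stretches before the start that hold TCACGTG on either strand are given for the 4 promoters with the most matches and for Sgsh, Arsa and Glb1. They run 5′ to 3′ on the strand of the gene, and capitals mark TCACGTG or its complement CACGTGA. Where both overlap as TCACGTGA the 8 letters count as 2 matches.

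Lamp1 (chr8:13159089-13159160, plus strand): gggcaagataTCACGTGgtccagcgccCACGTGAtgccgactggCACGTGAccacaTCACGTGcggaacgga
Cln3 (chr7:126583341-126583395, minus strand): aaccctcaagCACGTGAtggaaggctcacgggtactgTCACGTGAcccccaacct
Mcoln1 (chr8:3500437-3500490, plus strand): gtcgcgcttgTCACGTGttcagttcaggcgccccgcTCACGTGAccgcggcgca
Ctsa (chr2:164833750-164833772, plus strand): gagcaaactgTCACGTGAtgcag
Sgsh (chr11:119355523-119355549, minus strand): gcctgccgtgCACGTGAccgtggggag
Arsa (chr15:89477425-89477451, minus strand): caactcagtgTCACGTGttgtctgctc
Glb1 (chr9:114401019-114401045, plus strand): tgcttctgagTCACGTGgcctacagag

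Lamp1 held 4 matches in 72 bases ending just before the start, Cln3 and Mcoln1 held 3 each, and Ctsa held 2 in this stretch.

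Across the arrays the trimmed mean signal had been scaled to a common value, and array medians lay between 19.4 and 28.9. The tissue label was set beside markers: all 10 of 10 neuronal genes and 10 of 10 dentate and pyramidal genes were above the filter, with summed signals of 19061 to 24529.8 and 3808 to 5054. Of 10 thalamic and striatal markers 8 were also above it, with summed signals of 491 to 1053. Passing the filter therefore does not by itself mark the hippocampus. Choroid plexus markers, of which 8 of 10 were tested, varied far more, with summed signals from 232 to 10268. Of 4 established LXR targets, Abca1, Srebf1, Scd1 and Abcg1, all 4 rose with the drug (log2 differences 0.42 to 0.66, limma adjusted p at most 0.00104).

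No gene of the group passed the test in any comparison. Between vehicle Tg2576 and wild type, limma called 0 of 33 genes at an adjusted p under 0.05, against 0.235% of all genes tested. Between treated and vehicle Tg2576 it called 0 of 33, against 0.282%, and between treated Tg2576 and wild type 0 of 33, against 0.361%. The 3 comparisons share arrays pairwise. At an unadjusted p under 0.05 the counts were 2 of 33 (6.06%), 6 of 33 (18.2%) and 4 of 33 (12.1%), beside 11.9%, 11.7% and 9.44% of all genes. No gene of the group had groups of animals without overlap, against 0.047%, 0.0157% and 0.0313% of all genes.

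Markers of other cells differed beside these values. Of 10 meningeal fibroblast markers 8 had an unadjusted p under 0.05 and were higher in vehicle Tg2576 than in wild type, with summed signals of 661 to 2247 in wild type, 808 to 2601 in vehicle Tg2576, and 599 to 1944 in treated Tg2576. Of 10 astrocyte markers 6 had an unadjusted p under 0.05 and were lower, 1 of them called. Of the 9 oligodendrocyte markers tested 3 were lower at that level, with mean scores of 0.10, -0.080 and -0.022 in the 3 groups. Between treated and vehicle Tg2576, 4 of 10 astrocyte markers were higher and 1 lower at an unadjusted p under 0.05 with none called, and 1 of 9 endothelial markers was called higher (limma adjusted p = 0.0123). Between treated Tg2576 and wild type, 4 of 10 astrocyte markers were lower at that level, 1 of them called (limma adjusted p = 0.000346). The meningeal and oligodendrocyte scores entered the covariate fit named below. The astrocyte and endothelial scores entered no such fit, and correlations with the astrocyte score are given below.

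The differences were small. The group's log2 differences were above 0 for 16, 16 and 15 of 33 genes in the same order, with medians of -0.023, -0.014 and -0.016, beside 0.0066, -0.010 and -0.0025 over all genes tested. The 95% interval lay within 0.25 log2 units of 0 for 19, 19 and 24 genes (57.6%, 57.6% and 72.7%, beside 58.5%, 58.7% and 59.8% of all genes). It lay within 0.5 log2 units for 32 of 33 in each comparison, the exception being Galc. The spread between animals of a group had a median SD of 0.17 log2 units over these genes, beside 0.18 over all genes, and ran from 0.075 for Scarb2 to 0.60 for Galc. Whether RNA per cell or the number of cells of a type was behind a level cannot be told apart in whole tissue.

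**Figure D1:**
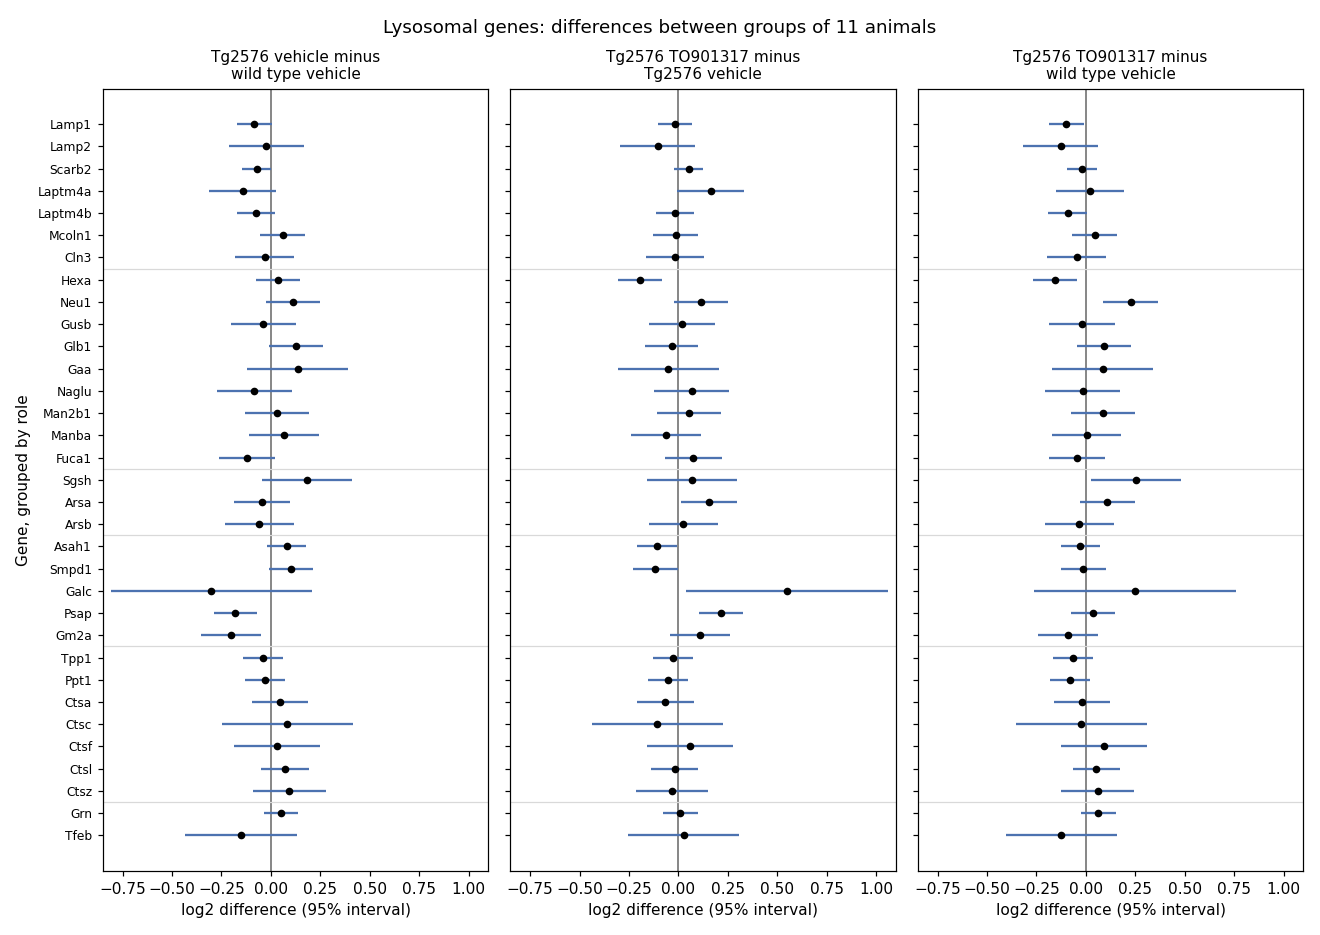
Log2 differences with 95% intervals for the 33 tested genes in the 3 comparisons, in order of role (each group n = 11). Points are differences of group means of log2(signal + 16). In all 3 panels most points lie close to 0, and the widest interval is that of Galc.

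Among membrane proteins, Lamp1 and Lamp2 are the abundant glycoproteins that line the lysosome. With the probe sets used, their differences lay within 0.13 log2 units of 0 in every comparison. Lamp1 signals averaged 1474 ± 118, 1390.4 ± 108 and 1372 ± 49.4 (SD, n = 11 each) in wild-type, vehicle Tg2576 and treated Tg2576 animals. Its difference between treated Tg2576 and wild type was -0.099 (SE 0.043, 95% interval -0.19 to -0.012, limma adjusted p = 0.438).

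The lowest, median and highest Lamp2 signals were 335, 376 and 612 in wild type, 287, 376 and 498 with the transgene and vehicle, and 261, 347 and 432 with the drug. The groups overlapped widely, and the wild-type highest value was a single animal, replicate 10. The difference between treated Tg2576 and wild type was -0.13 (SE 0.093, 95% interval -0.32 to 0.062, limma adjusted p = 0.736), and it was 0.0087 among replicate numbers 1 to 5 and -0.24 among replicate numbers 6 to 11. It was -0.066 without wild-type replicate 10, -0.084 without treated replicate 6 and -0.029 with the mean of the probe sets. Of the 4 Lamp2 probe sets past the filter, 2 were lower and 2 higher in treated Tg2576 than in wild type.

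Scarb2, which carries glucocerebrosidase to the lysosome, averaged 1023 ± 70.6, 971 ± 34.5 and 1008 ± 53.9, in the same order. This was the gene of smallest spread, and -0.071 was its difference between vehicle Tg2576 and wild type (SE 0.037, 95% interval -0.15 to 0.0031, limma adjusted p = 0.448). A dimmer Scarb2 probe set gave 0.074 for that comparison (limma adjusted p = 0.669). Between treated and vehicle Tg2576 the dimmer one gave -0.12 (limma adjusted p = 0.414) and the one used 0.052.

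Laptm4a, a multi-pass protein of late endosomes and lysosomes, was the membrane protein with the largest difference. Laptm4a read 1304, 1618 and 1818 in wild type (lowest, median and highest signal), 994, 1522 and 1911 in vehicle Tg2576, and 1377, 1556 and 1829.7 in treated Tg2576. Of 11 vehicle animals 4 lay below all animals of the other 2 groups. The lowest 3 vehicle values, 994, 1102 and 1147, belonged to replicates 3, 4 and 5. The difference was -0.14 for vehicle Tg2576 against wild type (SE 0.084, 95% interval -0.31 to 0.028, limma adjusted p = 0.533) and 0.16 for treated against vehicle (SE 0.084, 95% interval -0.0073 to 0.33, limma adjusted p = 0.455). Among replicate numbers 6 to 11 the treated against vehicle difference was -0.048, and with the Gapdh ratio described below as a covariate it was 0.090. It was 0.065 without vehicle replicates 3 and 4, and 0.42 among replicate numbers 1 to 5.

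Its relative Laptm4b averaged 1731 ± 174, 1641 ± 121 and 1619 ± 103. Mcoln1, a cation channel of the lysosomal membrane, averaged 199.9 ± 25.4, 208 ± 15.5 and 206 ± 16.1. Cln3, the membrane protein lost in juvenile Batten disease, averaged 68 ± 8.23, 66.6 ± 11.4 and 65.4 ± 8.90. For these 3 genes no difference had an absolute value over 0.1 log2 units with the probe sets used.

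**Figure D2:**
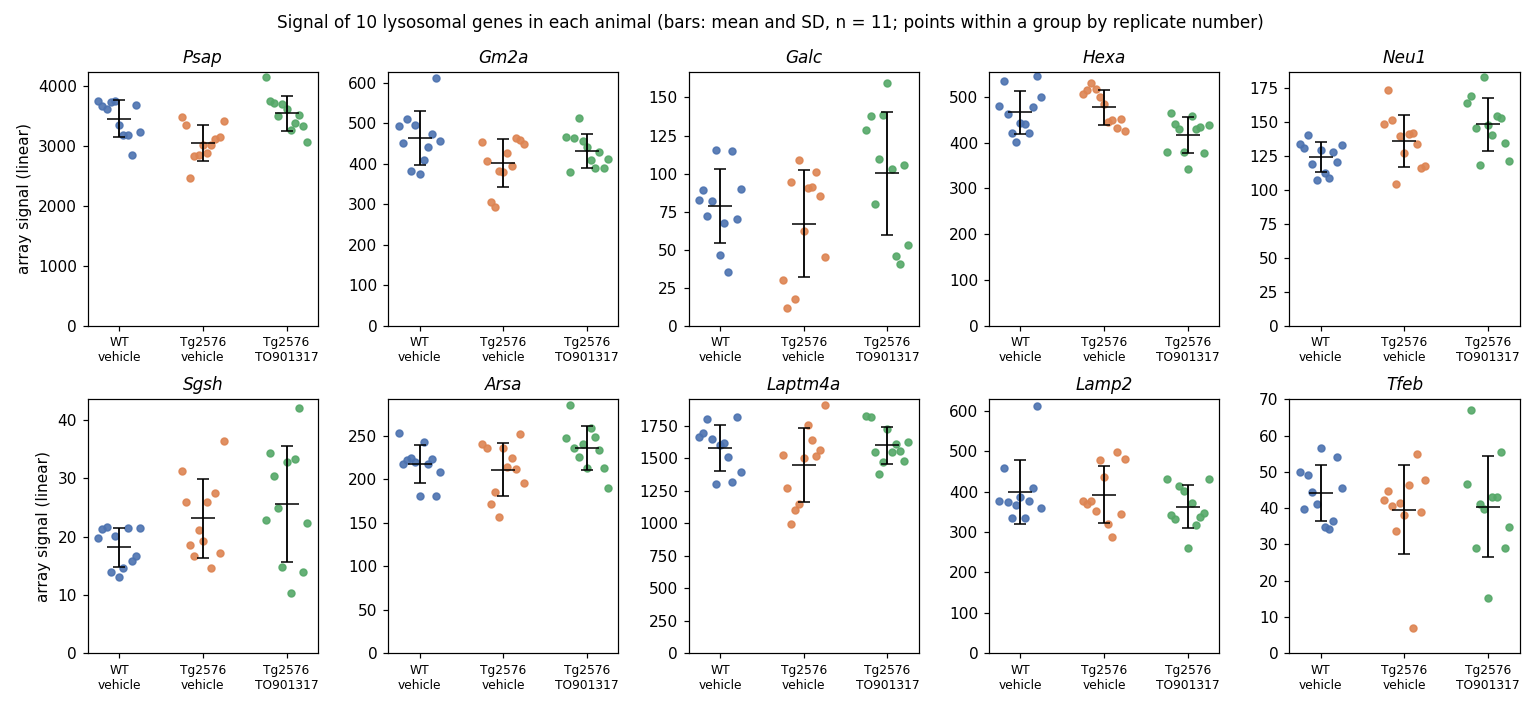
Linear array signal in every animal for the 10 genes described by their lowest, median and highest values, in wild-type vehicle, Tg2576 vehicle and Tg2576 TO901317 animals. Points stand for animals, ordered within a group by replicate number, and bars for mean and SD (n = 11). Groups overlap for every gene, Psap is lowest in vehicle Tg2576 on average, and several vehicle animals with low replicate numbers sit low for Galc, Gm2a and Laptm4a.

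Among glycosidases, Hexa, the alpha subunit of beta-hexosaminidase, which removes a terminal sugar from gangliosides, had a lower average with the drug. Across 11 animals each, Hexa signals had a lowest, median and highest value of 401, 463 and 545 in wild type, 425, 485 and 531 with the transgene and vehicle, and 344, 431 and 466 with the drug. None of the 11 treated animals exceeded the vehicle median, and 4 lay below the lowest vehicle value. The treated against vehicle difference was -0.19 (SE 0.055, 95% interval -0.31 to -0.081, limma adjusted p = 0.127) and that against wild type -0.16 (SE 0.055, 95% interval -0.27 to -0.045, limma adjusted p = 0.279). The treated against vehicle value was -0.29 among replicate numbers 1 to 5 and -0.12 among 6 to 11, and vehicle replicates 1 to 5 read 499 to 531 and vehicle replicates 6 to 11 read 425 to 485.

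Hexa also moved with a measure of RNA quality, the Gapdh ratio (log2 of signal at the 3′ end over the 5′ end of the transcript), across animals (Pearson r = 0.54, Spearman rho = 0.60, permutation p = 0.00015, adjusted over 99 relations 0.00743, r without the 2 farthest animals 0.52, within the groups 0.76, 0.75 and 0.26). That ratio was highest in vehicle replicates 3 and 4, at 0.11 and 0.079. With the ratio as a covariate the treated against vehicle difference of Hexa was -0.15 (limma adjusted p = 0.175).

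Neu1, a sialidase that works in a complex with Ctsa and Glb1, was higher on average in treated Tg2576 than in wild type. The lowest, median and highest Neu1 signals were 107, 128 and 140.1 in wild type, 104, 139.7 and 173 with the transgene and vehicle, and 118, 147 and 183 with the drug. Of 11 treated animals, 8 exceeded the highest wild-type value. The difference between treated Tg2576 and wild type was 0.23 (SE 0.068, 95% interval 0.087 to 0.36, limma adjusted p = 0.169), made of 0.11 from wild type to vehicle Tg2576 and 0.11 from vehicle to drug, neither of them called. Neu1 varied across animals with the score of 16 microglial markers (Pearson r = 0.57, Spearman rho = 0.58, permutation p = 0.00055, adjusted over 99 relations 0.0136, r without the 2 farthest animals 0.56, within the groups 0.49, 0.56 and 0.66). Within the 22 animals of low and the 11 of high choroid plexus score, described below, r was 0.70 and 0.066. The microglial score averaged -0.032, 0.025 and 0.0077 in the 3 groups. With microglial, oligodendrocyte, meningeal and choroid plexus scores as covariates the difference of Neu1 was 0.23 (limma adjusted p = 0.0948).

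The other glycosidases had small differences. Gusb, a glucuronidase, averaged 49.5 ± 9.00, 48 ± 9.59 and 48.4 ± 6.28. Glb1, the lysosomal beta-galactosidase, averaged 84.8 ± 9.29, 94.1 ± 11 and 91.7 ± 13.1.

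Gaa, which breaks down glycogen, averaged 443 ± 72.8, 501 ± 144 and 472 ± 78.6 and had a spread of 0.31 log2 units between animals. Naglu, an enzyme of heparan sulfate breakdown, averaged 39.3 ± 7.05, 36.5 ± 9.33 and 38.9 ± 9.16. Man2b1 and Manba, the lysosomal alpha- and beta-mannosidases, averaged 251 ± 39.4, 257 ± 38.8 and 266 ± 31.4 and 50.5 ± 10.8, 53.2 ± 7.63 and 50.5 ± 8.92. Fuca1, a fucosidase, averaged 345 ± 75.8, 311 ± 18.9 and 329.7 ± 31.4, with the wild-type maximum of 564 in replicate 10. With the probe sets used, the differences of these 7 genes lay between -0.12 and 0.14 log2 units. Between treated Tg2576 and wild type, 2 dimmer Fuca1 probe sets gave 0.12 and 0.21 (limma adjusted p = 0.774 and 0.484), and the one used -0.045. A dimmer Gusb probe set gave 0.17 for that comparison (limma adjusted p = 0.613), and the one used -0.019.

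Among sulfatases, Sgsh, which removes sulfate from heparan sulfate, had a difference between treated Tg2576 and wild type close in size to that of Galc. Sgsh read 13.1, 19.8 and 21.7 in wild type (lowest, median and highest signal), 14.7, 21.2 and 36.3 in vehicle Tg2576, and 10.3, 24.9 and 42 in treated Tg2576. These signals were close to the filter limit of 13.3. Another Sgsh probe set, not past the filter and not used here, went the other way. It averaged 13.2, 11.8 and 9.60 in wild-type, vehicle Tg2576 and treated Tg2576 animals.

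For Sgsh, 8 of 11 treated animals exceeded the highest wild-type value while 1 lay below the lowest. The difference was 0.25 (SE 0.11, 95% interval 0.025 to 0.48, limma adjusted p = 0.46), and 0.18 between vehicle Tg2576 and wild type (SE 0.11, 95% interval -0.044 to 0.41, limma adjusted p = 0.551). With a pseudocount of 64 in place of 16 these values were 0.12 and 0.082, with 1 they were 0.39 and 0.30, and with the marker scores as covariates 0.16 and 0.056.

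Arsa, which desulfates myelin sulfatides, was higher on average with the drug. Across 11 animals each, Arsa signals had a lowest, median and highest value of 180.1, 220.0 and 254 in wild type, 156, 214 and 251 with the transgene and vehicle, and 190.2, 235 and 286 with the drug. The treated against vehicle difference was 0.15 (SE 0.069, 95% interval 0.014 to 0.29, limma adjusted p = 0.37), and it was 0.31 among replicate numbers 1 to 5 and 0.022 among 6 to 11. Arsb, which desulfates dermatan and chondroitin sulfate, averaged 716 ± 101, 690.0 ± 119.7 and 698 ± 91.5.

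Of the 5 sphingolipid enzymes and activators 4 had an unadjusted p under 0.05 between treated and vehicle Tg2576, of which 2 were higher, 2 were lower and none was called, beside 11.7% of all genes. The counts were 2 of 5, both lower, between vehicle Tg2576 and wild type (11.9% of all genes) and 0 of 5 between treated Tg2576 and wild type (9.44%). In the other roles, treated against vehicle, the counts were 0 of 7 membrane proteins, 1 of 9 glycosidases and 1 of 3 sulfatases. They were 0 of 7 for the proteases and thioesterase and 0 of 2 for Grn and Tfeb. Psap encodes the precursor of the saposins, small proteins that help hydrolases reach sphingolipids in membranes, and it had the smallest p of the group in 2 comparisons. The lowest, median and highest Psap signals were 2842, 3619 and 3754 in wild type, 2458, 3024 and 3481 with the transgene and vehicle, and 3066, 3509.7 and 4152 with the drug. All 11 vehicle Tg2576 animals lay below the wild-type median, and all 11 treated animals lay above the vehicle median. Of the treated animals 7 exceeded the highest vehicle value, yet the groups overlapped.

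Psap was -0.18 log2 units from wild type in vehicle Tg2576 (SE 0.055, 95% interval -0.29 to -0.068, limma adjusted p = 0.138) and 0.22 from vehicle with the drug (SE 0.055, 95% interval 0.11 to 0.33, limma adjusted p = 0.0748). Treated animals and wild type differed by 0.038 (SE 0.055, 95% interval -0.073 to 0.15, limma adjusted p = 0.903). Another Psap probe set gave -0.19 and 0.32 for the first 2 comparisons, with a limma adjusted p of 0.179 for the second over 23038 probe sets. The treated against vehicle difference passed the limit when any of 3 arrays was left out, namely vehicle replicate 1 (adjusted p = 0.0496), vehicle replicate 11 (0.0481) or treated replicate 11 (0.0462), and did not pass in the other 30 such fits. It was 0.34 among replicate numbers 1 to 5 and 0.12 among 6 to 11, and 0.17 without vehicle replicates 3 and 4. The difference of vehicle Tg2576 from wild type was -0.32, -0.064 and -0.13 in the same 3 fits.

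Gm2a, the activator protein that presents a ganglioside to the Hexa product, was lower on average in vehicle Tg2576. Gm2a read 375, 456 and 611 in wild type (lowest, median and highest signal), 293, 406 and 464 in vehicle Tg2576, and 379, 429 and 514 in treated Tg2576. Of 11 vehicle Tg2576 animals 9 lay below the wild-type median, and replicates 3 and 4, at 306 and 293, were the lowest. The difference from wild type was -0.20 (SE 0.075, 95% interval -0.35 to -0.051, limma adjusted p = 0.249), and with the drug it was 0.11 (SE 0.075, 95% interval -0.042 to 0.26, limma adjusted p = 0.619). Without vehicle replicates 3 and 4 the difference from wild type was -0.12 (limma adjusted p = 0.559), and it was -0.34 among replicate numbers 1 to 5 and -0.088 among 6 to 11.

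Galc, which breaks down the myelin lipid galactosylceramide, had the largest difference and the largest spread. Across 11 animals each, Galc signals had a lowest, median and highest value of 35.3, 82.3 and 115 in wild type, 11.4, 85.5 and 109 with the transgene and vehicle, and 40.8, 105 and 159 with the drug. Vehicle replicates 1, 2 and 4 read 30.1, 11.4 and 17.8. The treated against vehicle difference was 0.55 (SE 0.25, 95% interval 0.039 to 1.06, limma adjusted p = 0.383), and that of vehicle Tg2576 from wild type -0.30 (SE 0.25, 95% interval -0.81 to 0.21, limma adjusted p = 0.696). Among replicate numbers 6 to 11 these values turned to -0.015 and 0.17, and among 1 to 5 they were 1.23 and -0.87. The difference of vehicle Tg2576 from wild type was -0.10 with the marker scores as covariates, -0.16 without vehicle replicate 2 and -0.19 without vehicle replicate 4. With a pseudocount of 64 the differences were 0.33 and -0.16.

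Asah1, the acid ceramidase, averaged 422 ± 38.6, 447 ± 36.6 and 413 ± 25.8. Smpd1, the acid sphingomyelinase, averaged 631 ± 75.7, 678 ± 69 and 622 ± 33.9. Treated against vehicle, their differences were -0.11 and -0.12 (limma adjusted p = 0.379 and 0.407).

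**Figure D3:**
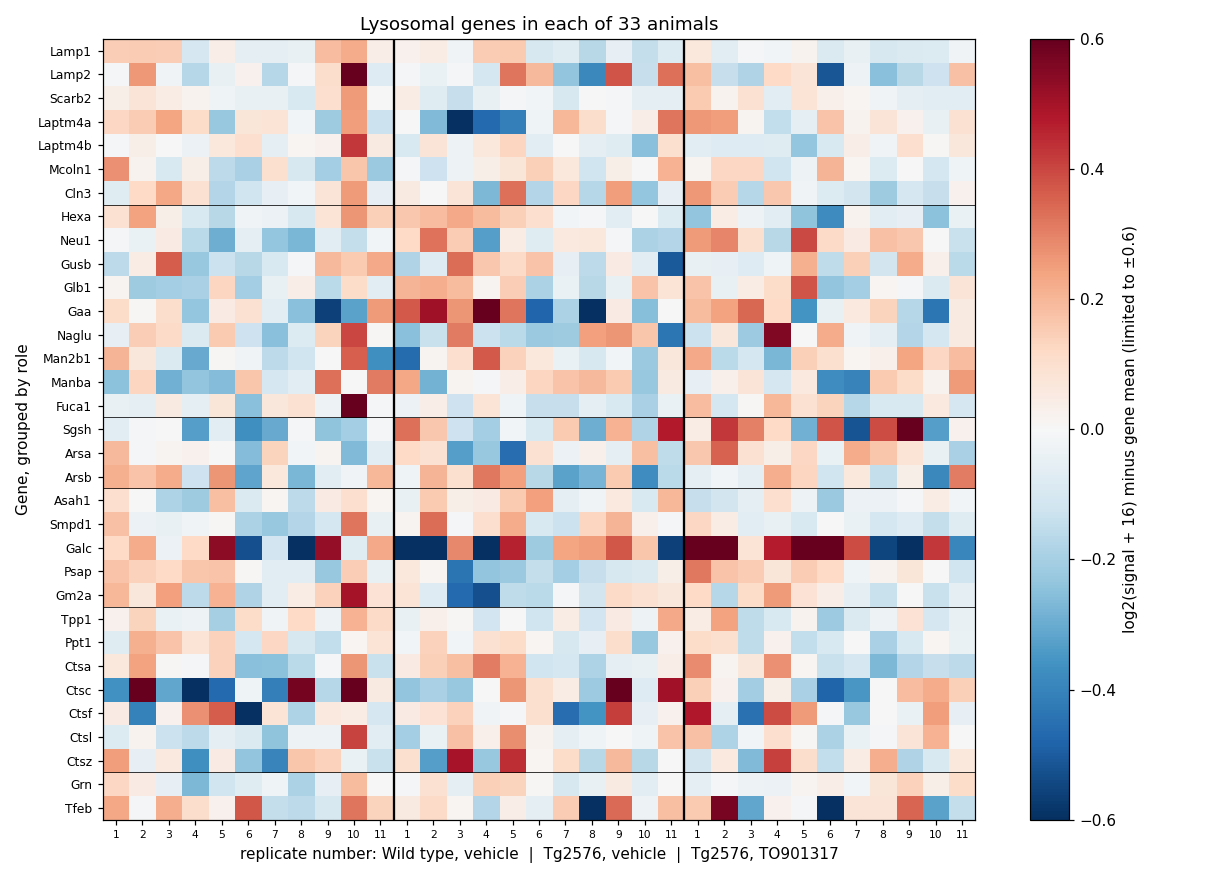
Deviation of each gene from its mean over 33 animals, log2(signal + 16), with colours limited at 0.6 either side, animals by group and replicate number. No gene separates the groups, and wild-type replicate 10 is high for many genes. Galc and Ctsc vary most.

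Proteases and the thioesterase showed no difference over 0.11 log2 units in absolute value with the probe sets used. Tpp1, a tripeptidyl peptidase, averaged 573 ± 45.8, 555 ± 40.7 and 546 ± 50.5. Ppt1, which removes palmitate from proteins, averaged 340.1 ± 30.4, 333 ± 25.1 and 321 ± 23.7. Loss of either causes a childhood neuronal ceroid lipofuscinosis.

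Ctsa, a carboxypeptidase that also protects Neu1 and Glb1, averaged 365 ± 47.3, 377 ± 43.1 and 359.8 ± 48.8. Ctsc, a dipeptidyl peptidase, averaged 136 ± 67.8, 137 ± 37.6 and 124 ± 21.4 and had a wild-type maximum of 294, in replicate 10. Ctsf, a cysteine protease, averaged 158 ± 32.8, 161 ± 28.1 and 169 ± 34.8. Ctsl and Ctsz, also cysteine proteases, averaged 767 ± 98.7, 804 ± 77.1 and 793 ± 70.8 and 282 ± 43.1, 303 ± 60.5 and 294 ± 43.4, and none of these 5 genes passed the test in any comparison.

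Grn encodes progranulin, which reaches the lysosome and is cut there into granulins, and averaged 849 ± 79.1, 878 ± 51 and 884 ± 39.6. Tfeb, the regulator that binds the element shown above, was a dim gene. The lowest, median and highest Tfeb signals were 34.3, 44.4 and 56.7 in wild type, 6.96, 41.5 and 55 with the transgene and vehicle, and 15.3, 41 and 67.1 with the drug. The vehicle low of 6.96 was replicate 8 and the treated low of 15.3 was replicate 6, and the other animals of these groups read 28.9 or more. The difference of vehicle Tg2576 from wild type was -0.15 (SE 0.14, 95% interval -0.43 to 0.13, limma adjusted p = 0.733), and without vehicle replicate 8 it was -0.028. The 9 genes with TCACGTG in the promoter had median differences of 0.046, -0.016 and 0.045 in the 3 comparisons, and the 22 tested genes with a promoter but without it -0.026, 0.022 and -0.016; these medians describe the values and were not tested.

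Beyond the group, no gene of the wider lysosomal system passed the test. In lists of other hydrolases (31 of 39 tested), other membrane and transport proteins (28 of 30), delivery factors (13 of 13), the proton pump or v-ATPase (17 of 18), Tfeb and mTORC1 regulators (21 of 23) and autophagy genes (24 of 25), limma called 0 genes in every comparison, beside 0.235%, 0.282% and 0.361% of all genes. At an unadjusted p under 0.05, these lists held 2, 4, 0, 2, 1 and 1 genes between vehicle Tg2576 and wild type, 2, 2, 1, 1, 6 and 5 between treated and vehicle, and 2, 0, 0, 3, 1 and 1 between treated Tg2576 and wild type. Over all genes the shares were 11.9%, 11.7% and 9.44%. A list's share was above these for other membrane and transport proteins in the first comparison (14.3%), for Tfeb and mTORC1 regulators and autophagy genes in the second (28.6% and 20.8%) and for the pump in the third (17.6%), and below them in the other counts.

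The gene of smallest p in each list is given as a value. Igf2r, the receptor that carries tagged enzymes to the lysosome, differed by -0.31 (limma adjusted p = 0.467) between vehicle Tg2576 and wild type and by 0.49 (limma adjusted p = 0.216) between treated and vehicle. Ywhaz, a protein that retains phosphorylated Tfeb in the cytosol, differed by -0.80 (limma adjusted p = 0.382) between vehicle Tg2576 and wild type, with signals of 1972 ± 1036 and 2557 ± 343 (SD, n = 11 each). For the same comparison the values were 0.16 (limma adjusted p = 0.324) for the protease Lgmn, 0.16 (limma adjusted p = 0.215) for the membrane protein Tmem192, 0.074 (limma adjusted p = 0.363) for the pump subunit Atp6v1f and 0.11 (limma adjusted p = 0.388) for the autophagy gene Uvrag.

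Between treated and vehicle Tg2576, Hyal2, a hyaluronidase, differed by -0.40 (limma adjusted p = 0.209), and Abca2, a lipid transporter, by 0.26 (limma adjusted p = 0.296). The pump subunit Atp6v0b differed by -0.19 (limma adjusted p = 0.187), Lamtor4, part of the complex that holds mTORC1 at the lysosome, by -0.13 (limma adjusted p = 0.357), and Atg12, part of the conjugation system that builds autophagosomes, by -0.15 (limma adjusted p = 0.234). Between treated Tg2576 and wild type, Atg12 differed by -0.19 (limma adjusted p = 0.13), the nuclease Dnase2a by 0.18 (limma adjusted p = 0.502), the chloride transporter Clcn7 by 0.12 (limma adjusted p = 0.55), the adaptor Gga1 by -0.12 (limma adjusted p = 0.698), the pump subunit Atp6v1g2 by 0.12 (limma adjusted p = 0.491) and Zkscan3, a repressor of autophagy genes, by -0.11 (limma adjusted p = 0.492).

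Values of these genes tended to vary together across animals, but correlations were not computed for pairs of other genes. Whether the group differs in this from other genes was not tested. Deviations from the group means were correlated for all 528 pairs of the 33 genes over 33 animals, and 397 pairs were positive, with a median r of 0.15 and a range of -0.60 to 0.74. By Pearson's r 23 pairs passed an adjusted p under 0.05 (permutation test, 100000 resamples, two-sided), 21 of them positive, and by Spearman's rho 11 passed. The strongest was Lamp1 with Ctsa, at r = 0.74 and rho = 0.77 (p = 1e-05, the smallest these resamples can give, adjusted p = 0.00264), and it was 0.70 without the 2 farthest animals and 0.72, 0.88 and 0.77 within the 3 groups.

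Lamp2 with Ctsc gave r = 0.71 and rho = 0.59 (p = 1e-05, adjusted p = 0.00264), and 0.55 without the 2 farthest animals. Lamp2 with Ctsl gave 0.69 and rho 0.61 (permutation p = 0.00016, adjusted 0.0169), and 0.61 without them. Ctsc with Ctsl gave 0.66 and rho 0.65 (permutation p = 0.00012, adjusted 0.0158), and 0.49 without them. With wild-type replicate 10 left out these 3 values were 0.60, 0.56 and 0.49, the lowest of any animal left out.

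Much of this rested on 1 animal. Wild-type replicate 10 held the highest wild-type value for 17 of 33 genes and the highest choroid plexus score of all animals, 2.97. Without it 4 pairs passed (Lamp1 with Ctsa, Lamp1 with Arsb, Lamp2 with Ctsc, and Tpp1 with Ctsc) and the median r was 0.10. The counts without wild-type replicate 8, vehicle Tg2576 replicate 5 or vehicle Tg2576 replicate 10 were 14, 12 and 15, and the other 29 such counts lay between 17 and 32.

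**Figure D4:**
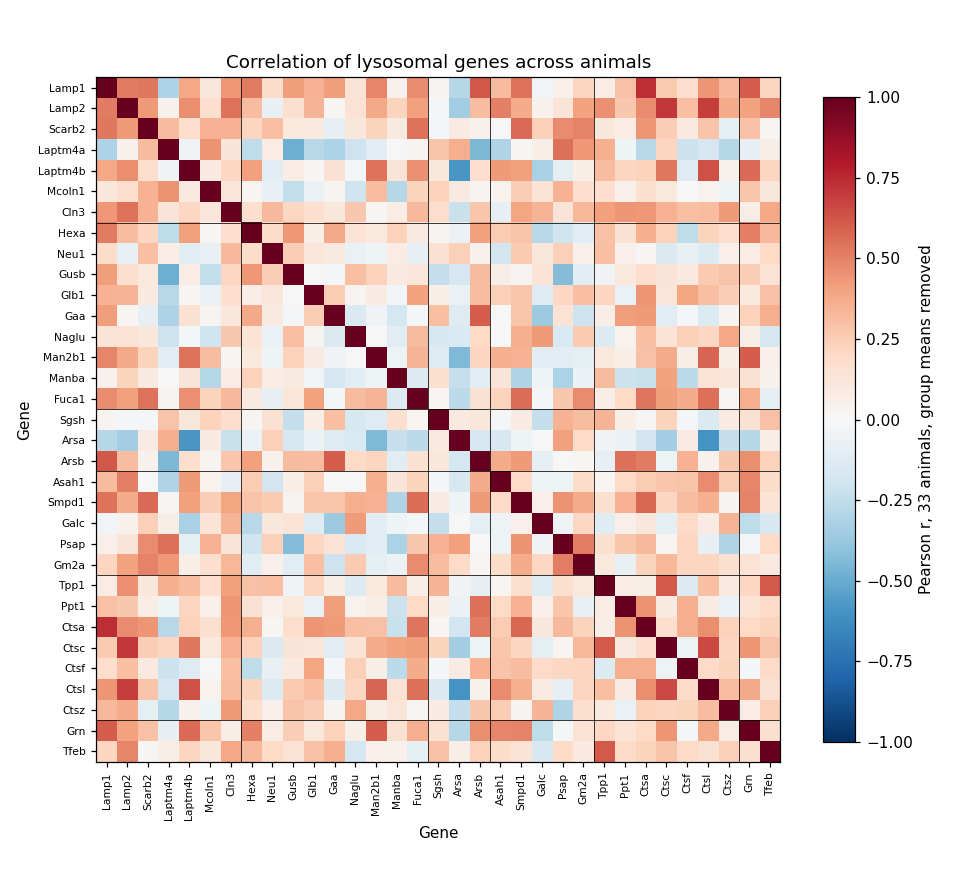
Pearson correlation between each pair of the 33 genes across 33 animals after removal of group means, in order of role. Most cells are weakly positive, the darkest red cells include Lamp1 with Ctsa and Lamp2 with Ctsc and Ctsl, and the darkest blue is Arsa with Ctsl.

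The choroid plexus score split the animals into 22 with values of -1.15 to -0.14 and 11 with values of 0.50 to 2.97. The high set held 3 wild-type, 3 vehicle Tg2576 and 5 treated animals. Because of this split no pooled correlation with the score is given. Ctsc, Ctsl and Lamp2 were chosen from the group after the data were seen. The adjustment over 6 relations does not cover that choice. The high set includes wild-type replicate 10, at 2.97, and its correlations with the score were not computed without that animal. Within the low set Ctsc, Ctsl and Lamp2 had r = -0.11, -0.039 and -0.35 (rho = -0.066, -0.12 and -0.36, permutation p = 0.567, 0.885 and 0.127). Within the high set r was 0.68, 0.79 and 0.69 (rho = 0.31, 0.75 and 0.55, permutation p = 0.181, 0.039 and 0.174, adjusted over 6 relations 0.271, 0.234 and 0.271). Of the pairs above, Lamp2 with Ctsc gave r = 0.52 and 0.67 in the low and high sets (unadjusted permutation p = 0.0066 and 0.32). Lamp2 with Ctsl gave 0.48 and 0.63 (unadjusted permutation p = 0.036 and 0.27). Ctsc with Ctsl gave 0.37 and 0.51 (unadjusted permutation p = 0.077 and 0.53). Lamp1 with Ctsa gave 0.74 and 0.77 (unadjusted permutation p = 0.00049 and 0.0092).

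Other relations to cell type markers and RNA quality were few. Of 99 relations of the 33 genes to microglial and oligodendrocyte scores and to the Gapdh ratio, 7 passed by Pearson's r. Besides Hexa and Neu1 they were Arsb, Lamp1 and Ctsa with the Gapdh ratio (r = 0.63, 0.57 and 0.54, rho = 0.64, 0.67 and 0.56, adjusted permutation p = 0.00743, 0.0199 and 0.0132) and Cln3 and Lamp1 with the oligodendrocyte score (0.57 and 0.57, rho = 0.53 and 0.59, adjusted permutation p = 0.0195 for each, 0.45 and 0.46 without the 2 farthest animals). Within wild-type, vehicle and treated animals the ratio gave r = 0.69, 0.66 and 0.26 for Lamp1 and 0.60, 0.83 and 0.16 for Ctsa. Arsb was the strongest for the Gapdh ratio (permutation p = 0.00012, 0.66 without the 2 farthest animals, 0.64, 0.68 and 0.70 within the groups). Among 132 further relations, added after the data were seen, Lamp1 and Scarb2 moved with the astrocyte score (r = 0.60 and 0.58, rho = 0.63 and 0.54, adjusted permutation p = 0.00528 and 0.0297) and Ctsc with the meningeal score (r = 0.61, rho = 0.61, adjusted permutation p = 0.00198). These adjusted values are for Pearson's r, and by Spearman's rho Scarb2 did not pass (adjusted permutation p = 0.070). The astrocyte score averaged 0.080, -0.082 and 0.0019 in the 3 groups and the meningeal score -0.16, 0.19 and -0.030.

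**Figure D5:**
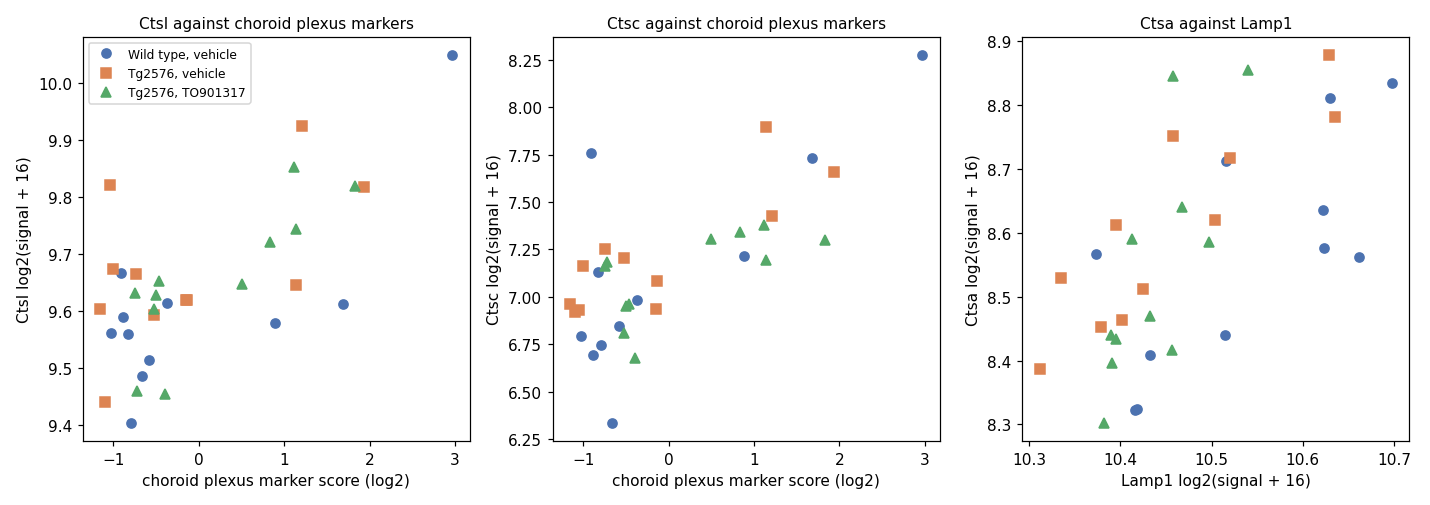
Log2(signal + 16) of Ctsl and Ctsc against the choroid plexus marker score, and of Ctsa against Lamp1, for 33 animals in 3 groups. The score leaves a gap between -0.14 and 0.50, wild-type replicate 10 is the point at 2.97, and Ctsa and Lamp1 move together in all 3 groups.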

How the data were processed

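Each animal has 1 column of linear array intensity deposited by the authors, computed with MAS5 per the submitters' processing notes; its version is not given in the sources used here. The mean after trimming 2% at each end was 99.97 on every array. Of 45101 probe sets, 64 were controls, 34945 named 1 gene in a platform annotation that can be old, 932 named several and 9160 none; only those naming 1 gene were used. Signals were taken as log2(signal + 16), which understates the change of dim genes. The lowest 40% by mean (limit 13.3) were left out and the brightest probe set stood for each gene. Levels of different genes were not compared.

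A model with a mean for each group was fitted over the 33 arrays by limma 3.58.1 under R 4.3.3 (eBayes with trend and robust), with Benjamini-Hochberg adjustment over 12760 genes and a limit of 0.05. Replicates are separate animals, and their number limits the precision. Correlations used Python 3.11.15 with scipy 1.17.1, shuffling animals within groups. Scores are mean deviations of marker genes. The fits and correlations were tested on simulated data. The genes and lists were chosen with earlier results of these data known. All genes of the group are named; full values by animal are given for genes called and for the 5 of largest absolute difference per comparison, and for other lists the gene of smallest p where none was called. Alternatives covered the pseudocount, filter, scaling, probe set rule, arrays, covariates, variance model and replicate number; the split by replicate number, the test of every probe set, further scores and the correlations with each animal left out were added after the data were seen.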

Additional observations from a re-analysis of the deposited data

How the results depend on the processing

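The count of lysosomal genes called was 0 in each comparison under all 15 alternatives other than leaving out single arrays, which include another pseudocount, no filter, quantile scaling, covariates, and the replicate number as a block. Replicate numbers are shared by the groups in the labels, and the deviations of same-numbered animals correlated at -0.10 to 0.12 between wild type and vehicle Tg2576, 0.041 to 0.19 (positive for all 11 numbers, over 0.1 for 6) between vehicle and treated Tg2576, and -0.016 to 0.22 between wild type and treated Tg2576. Since not every value was over 0.1 the numbers were not taken as pairs; with the replicate block limma again called 0 genes in each comparison, with a smallest adjusted p of 0.0566. Leaving out single arrays gave 0 to 1 called genes between treated and vehicle Tg2576, the 1 being Psap, and 0 in the other 2 comparisons. The median difference of the group lay between -0.024 and 0.036, -0.015 and 0.030, and -0.028 and 0.025 over the other alternatives. Signs turned for 4 values, none of them called: with replicate numbers 1 to 5 only, Lamp2 between treated Tg2576 and wild type (0.0087); with 6 to 11 only, Galc between vehicle Tg2576 and wild type (0.17), and Galc (-0.015) and Laptm4a (-0.048) between treated and vehicle. The cause was not tested. With 0.5 in place of 0.25 as the limit, 32 and 32 intervals lay inside for the first 2 comparisons. Spearman's rho called 11 pairs and 11 score relations; leaving out single animals gave 4 to 32 pairs and 5 to 10 score relations. Dim genes such as Sgsh and Tfeb limit what can be seen, since a few units of signal move their log2 values. Galc was brighter, with a mean signal of 82.0, and its animals ran from 11.4 to 159.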

Other observations

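Probe sets of the same gene did not always share a sign. Of the 18 lysosomal genes with more than 1 probe set past the filter, all probe sets had the same sign in 5, 9 and 5 genes for vehicle Tg2576 against wild type, treated against vehicle, and treated Tg2576 against wild type. When the 23038 probe sets were tested separately, limma called 0 of the 61 of this group in each comparison, beside 0.165%, 0.135% and 0.169% of all probe sets, with smallest adjusted p-values of 0.186, 0.0998 and 0.236.

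A dim probe set of Gm2a, with a mean signal of 40.5, separated animals of vehicle Tg2576 by replicate number. Vehicle replicates 1 to 5 read 29.2, 10.3, 1.89, 1.76 and 1.97, and vehicle replicates 6 to 11 read 46.8 to 67.3. Wild-type animals read 26.5 to 65.4 and treated animals 20.1 to 65.0 on that probe set. The labels give the replicate numbers no meaning. The brighter Gm2a probe set did not divide these animals without overlap, with vehicle replicate 1 at 454 and replicate 6 at 381. Its difference between vehicle Tg2576 and wild type was still larger among replicate numbers 1 to 5 (-0.34) than among 6 to 11 (-0.088).

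A dimmer probe set of Man2b1 read 37.7 ± 11.2, 29.7 ± 9.59 and 27.9 ± 6.50 (SD, n = 11 each) in wild-type, vehicle and treated animals, a log2 difference of -0.28 between treated Tg2576 and wild type (limma adjusted p = 0.484), while the brighter one gave 0.085. For Ctsz the 3 probe sets gave -0.032, -0.16 and -0.081 between treated and vehicle, with adjusted p-values of 0.374 or more. Between vehicle Tg2576 and wild type the same 3 gave 0.093, 0.13 and 0.18, with limma adjusted p-values of 0.405 or more.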
